A study of Mus musculus with 32 samples.

Results

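The insulin-like growth factor (IGF) binding proteins are 7 secreted proteins, encoded in the mouse by Igfbp1 to Igfbp7, and their hepatic mRNA levels are described here across all 8 groups of a liver array experiment. The members were found by gene name among the non-control probes of the arrays. The 7 genes had 9 of the 55681 probes, and 6 of the 7 genes entered a test over 21289 genes. Igfbp7 did not, because its single probe was well above background on 0 of 32 arrays. Male C57BL/6 mice, 8 weeks old at the start, received chow (C) or a methionine- and choline-deficient diet (MCD), which lacks nutrients needed to export fat from hepatocytes and is a model of steatohepatitis without obesity. After 1 week on the diet, a part of each diet group was given Fc-GLP-1, a long-acting glucagon-like peptide-1 receptor agonist, for 2 weeks (M+Fc-GLP-1 for the MCD diet, C+Fc-GLP-1 for chow), and the other mice were given saline. Partial hepatectomy (PH) then removed 70% of the liver, and diet and treatment went on for 2 weeks. Each of the 4 groups had 4 arrays of liver removed at PH ("before PH") and 4 of liver taken 2 weeks later ("after PH"), with 1 array per sample. The labels give the samples before and after PH the same replicate numbers without saying whether they came from the same mice, the mice sampled after PH were those that survived, and some labels name, in place of Fc-GLP-1, an agonist of both the glucagon and the GLP-1 receptor. The labels of all 4 C+Fc-GLP-1 samples after PH name a dual agonist for the 2 weeks after PH. By these labels the drug may differ between the groups in every comparison that uses C+Fc-GLP-1 after PH. For the treated samples the labels give a dose of 4.4 mg per kg per day, which differs in unit and schedule from the methods of the study. The samples were pieces of whole liver, so fewer cells of a type and less mRNA per cell cannot be told apart.

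IGF binding proteins carry IGF-1 and IGF-2 in plasma and tissue fluid and limit or prolong their action on the IGF-1 receptor. IGFBP-1 comes mainly from hepatocytes, is repressed by insulin through FOXO1 and rises in fasting and amino acid shortage. IGFBP-2 is the other main hepatocyte product, and IGFBP-3 forms the large plasma complex with IGF-1 and the acid-labile subunit, the product of Igfals. IGFBP-4 is cut by the protease PAPP-A, IGFBP-5 and IGFBP-6 are made largely by mesenchymal and mesothelial cells, and IGFBP-7 is a matrix protein with low affinity for IGFs.

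The genes lie in RefSeq (GRCm38.p6) in 2 tail-to-tail pairs and 3 single places. Igfbp1 (chr11:7197787-7202546, plus strand) and Igfbp3 (chr11:7206086-7215498, minus strand) are 3539 bases apart, and Igfbp2 (chr1:72824480-72852474, plus strand) and Igfbp5 (chr1:72858065-72874865, minus strand) are 5590 bases apart, with 0 protein-coding genes between the members of either pair. Igfbp4 is at chr11:99040005-99052655, Igfbp6 at chr15:102144186-102149512 and Igfbp7 at chr5:77349240-77408045. The 250 bases before the annotated start (RefSeq, GRCm38.p6, printed 5′ to 3′ on the strand of the gene) are shown for the 3 members that differed between diets within a slide, Igfbp1 (chr11:7197537-7197786), Igfbp2 (first annotated start, chr1:72824230-72824479) and Igfbp5 (chr1:72874866-72875115). Capitals mark matches to 3 motifs searched on both strands, of which the first was the core of the insulin response element that forkhead factors bind (spelled CAAAACA). The others were the E box and the TATA box, whose letters are given with their counts after the sequences.
Igfbp1: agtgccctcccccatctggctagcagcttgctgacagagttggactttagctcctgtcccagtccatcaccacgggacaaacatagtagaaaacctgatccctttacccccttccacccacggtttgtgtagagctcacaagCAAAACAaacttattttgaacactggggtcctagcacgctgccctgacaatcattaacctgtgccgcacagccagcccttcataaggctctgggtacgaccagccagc
Igfbp2: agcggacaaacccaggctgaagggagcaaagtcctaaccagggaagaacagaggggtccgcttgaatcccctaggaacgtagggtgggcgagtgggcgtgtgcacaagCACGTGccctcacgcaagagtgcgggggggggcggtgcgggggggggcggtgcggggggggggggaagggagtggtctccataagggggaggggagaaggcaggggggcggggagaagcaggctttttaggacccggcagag
Igfbp5: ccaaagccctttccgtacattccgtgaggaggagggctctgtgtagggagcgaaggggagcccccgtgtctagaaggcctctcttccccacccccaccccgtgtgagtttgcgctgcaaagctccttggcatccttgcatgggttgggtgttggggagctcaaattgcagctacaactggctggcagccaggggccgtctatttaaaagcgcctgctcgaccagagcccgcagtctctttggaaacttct
Among the 8 promoters of the 7 members, CAAAACA was found in that of Igfbp1, at bases 108 to 102 before the start, and in 5.56% of all 32851 promoters. The E box (CACGTG) was found in that of Igfbp2, at bases 142 to 137 before the start, and in 6.02% of all promoters. The TATA box (TATAAA) was found in that of Igfbp4, at bases 28 to 23 before the start, and in 12.4% of all promoters. The letters were also found in that of Igfbp6, but on the opposite strand (TTTATA) and at bases 148 to 143 before the start. None of these matches overlapped another, and a match is a description of the letters in this window.

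A level here is log2 of the processed signal of a probe minus log2 of the 75th percentile of its array, so that 0 is the 75th percentile and a step of 1 is a 2-fold change. Levels were not compared between probes, whose brightness depends on their sequence. The arrays lay on 5 slides, and each group lay on 1 slide. Only the diet comparisons before PH (with and without Fc-GLP-1) and the diet comparison under Fc-GLP-1 after PH set arrays of the same slide against each other, and there the 2 diets lay in different rows of the slide. In the other comparisons slide and group cannot be told apart, C and MCD after PH also came from another scanner than the rest, and an interaction is free of a slide difference only if it is the same for both diets. The share of probes well above background ran from 36.3% to 69.2% over the arrays. The hepatocyte marker Alb had group means from 9.77 to 10.40, and another, Apoa1, from 8.06 to 9.20. A difference was called at an adjusted p (limma, Benjamini-Hochberg over 21289 genes) under 0.05.

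The 6 tested members had 1 probe each in the test, well above background on 30 to 32 of 32 arrays (Igfbp1 on 31 of the 31 measured), and no array had a saturated spot for any member. Before PH, Igfbp6 was well above background on 3 of 4 C+Fc-GLP-1 arrays and on 3 of 4 M+Fc-GLP-1 arrays. Igfbp5 was so on 3 of 4 M+Fc-GLP-1 arrays before PH. The Igfbp1 spot of M+Fc-GLP-1 replicate 4 after PH was flagged by the scanner software and is treated as missing, so that this group has 3 values. In the files the tested probes belong to NM_008341 (Igfbp1), NM_008342 (Igfbp2), NM_008343 (Igfbp3), NM_010517 (Igfbp4), NM_010518 (Igfbp5) and NM_008344 (Igfbp6). The second probe of Igfbp3 was well above background on 0 of 32 arrays. For Igfbp7 (NM_001159518 in the files) no level or change is given.

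**Figure D1:**
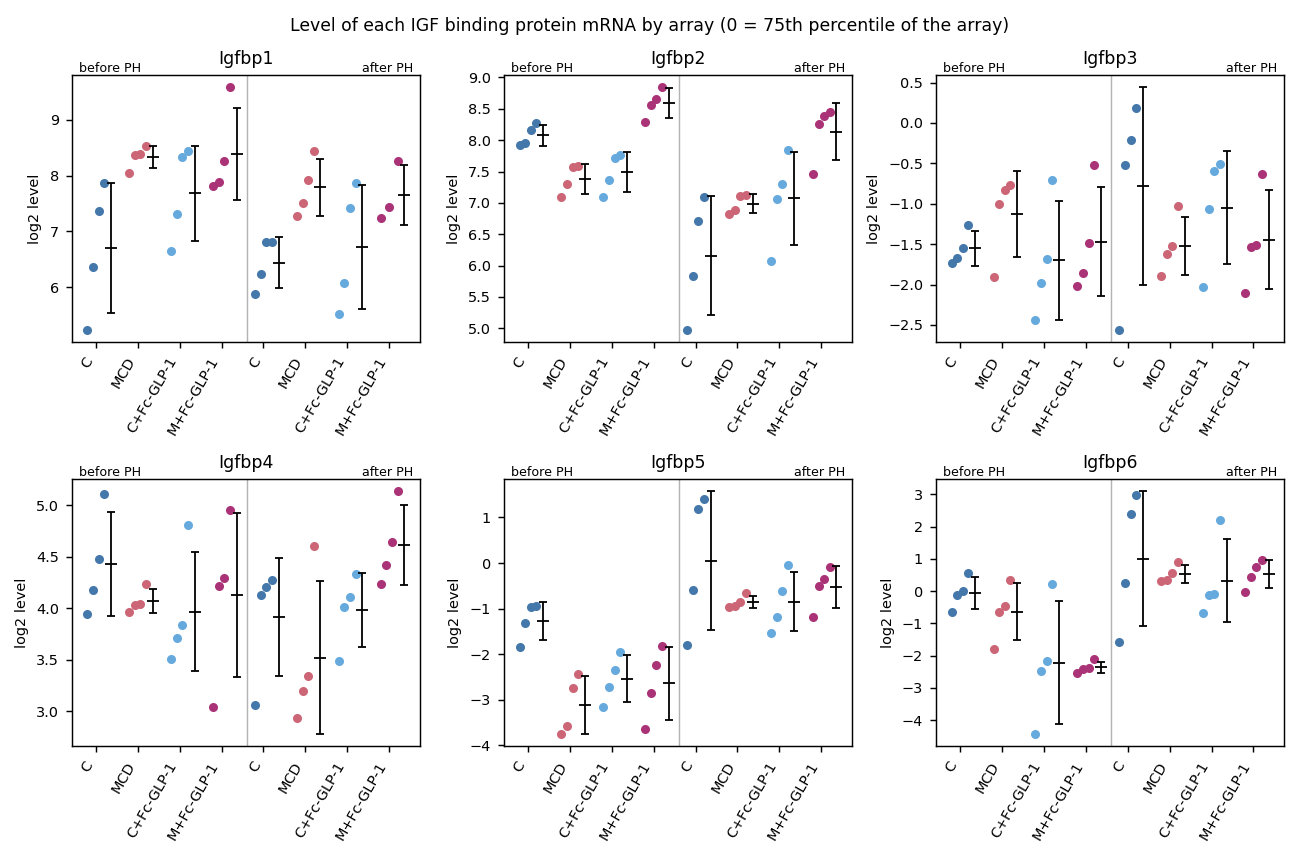
Level of each tested member (log2, 0 = 75th percentile of the array, y axis) in the 8 groups (x axis), 1 point per array, sorted within a group, with the mean and SD beside the points. Igfbp2 is highest in M+Fc-GLP-1 livers at both times, and Igfbp5 and Igfbp6 lie higher after PH than before PH in most groups.

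The order of the 8 group means differed between members. For Igfbp1 the means ran from 8.39 in M+Fc-GLP-1 before PH to 6.43 in C after PH, a range of 1.95, and for Igfbp2 from 8.59 in M+Fc-GLP-1 before PH to 6.15 in C after PH, a range of 2.44. Igfbp3 and Igfbp4 ranged least, by 0.92 and 1.09. Igfbp5 ranged by 3.17, from 0.05 in C after PH to -3.12 in MCD before PH, and Igfbp6 by 3.37, from 1.01 in C after PH to -2.36 in M+Fc-GLP-1 before PH. All 4 groups after PH ranked above all 4 groups before PH for Igfbp5 and for Igfbp6, which was not so for the other members. Of the 42 steps between neighbours in these orders, 4 were larger than the larger SD of the pair. These were the steps below MCD before PH for Igfbp1 (0.54), below M+Fc-GLP-1 before PH and below C before PH for Igfbp2 (0.46 and 0.59), and below C before PH for Igfbp5 (1.28). All other neighbours did not differ beyond their spread.

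Before PH, the MCD diet went with more Igfbp1 and less Igfbp5 mRNA in livers without Fc-GLP-1. Igfbp1 rose 3.09-fold and Igfbp5 fell 3.61-fold, so that 2 of the 6 tested members were called where 26.3% of all tested genes were. The Igfbp1 levels were 5.23, 6.36, 7.36 and 7.87 in the 4 C livers and 8.37, 8.52, 8.05 and 8.38 in the 4 MCD livers. All MCD values lay above all C values, and the C livers were spread far more widely (SD 1.16, n = 4) than the MCD livers (SD 0.20, n = 4). The log2 difference was 1.63 (SE 0.52, limma adjusted p = 0.0213). The call was lost without C replicate 1 (difference 1.14, adjusted p = 0.116) or C replicate 2 (1.51, adjusted p = 0.0518). Igfbp5 levels were -0.95, -0.96, -1.31 and -1.84 in the C livers and -2.73, -2.42, -3.56 and -3.75 in the MCD livers. The groups did not overlap, and the difference of -1.85 (SE 0.50, limma adjusted p = 0.00705) was called with every array left out in turn. It was -1.08 in the deposited log2 values (adjusted p = 0.00346). With normexp background correction (offset 50) followed by quantile normalization it was -1.15 (adjusted p = 0.0269). This setting, called quantile normalization below, replaced the background correction of the processed signal as well as the scaling. Both comparisons lay within 1 slide.

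The other 4 tested members did not pass the threshold between MCD and C livers before PH. Igfbp2 levels were 7.95, 8.27, 7.93 and 8.17 in C and 7.59, 7.30, 7.56 and 7.09 in MCD livers. The groups did not overlap, but the difference of -0.69 (95% interval -1.39 to 0.00, limma adjusted p = 0.131) did not pass. It passed with only these groups in the fit (adjusted p = 0.0435), and its sign turned with the deposited log2 values (0.31) and with quantile normalization (0.31). Igfbp3 differed by 0.43 (95% interval -0.52 to 1.37), Igfbp4 by -0.36 (-1.12 to 0.41) and Igfbp6 by -0.59 (-2.16 to 0.98).

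Other genes of the IGF axis differed in the same comparison. Of the 15 tested genes of 18 in a list of IGF and growth hormone genes, 7 passed, and the median difference was -0.28 against -0.12 over all genes. Igf1, the growth factor itself, fell by 0.97 (SE 0.24, limma adjusted p = 0.00331), Igfals fell by 1.44 and Ghr, the growth hormone receptor, fell by 1.18, as did Stat5b, which relays its signal, by 0.91. Igf1r, the IGF-1 receptor, rose by 1.01. Igf2 was too dim to be tested, as were the IGFBP proteases Pappa and Pappa2. In a list of 10 genes of the amino acid shortage response, 7 passed, all of them higher in MCD livers, with a median difference of 3.02 over the list; Psat1 rose by 5.91, Asns by 5.29 and Fgf21 by 4.56.

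Cell type markers also differed between MCD and C livers before PH. Of 5 macrophage markers, 4 were called, all higher in MCD, with a median difference of 1.57. Of 7 stellate cell markers 3 were called, all higher in MCD (Lrat by 1.88, Dcn by 1.64 and Col1a1 by 1.64), with a median difference of 0.34 over the list. Acta2 and Des were not called and had lower means in MCD than in C livers (0.18 against 0.97 and -2.10 against -1.84). The mean log2 level over the stellate list ran from 0.14 to 0.52 in the C livers and from 0.91 to 1.14 in the MCD livers. Of the 3 tested mesothelial markers, Wt1 rose by 1.96, while Msln differed by -2.17 (adjusted p = 0.0603). Of the hepatocyte markers, 1 of 5 was called (Apoa1 fell by 1.13). The part of cell composition in the Igfbp1 and Igfbp5 differences was not tested.

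Under Fc-GLP-1 before PH, Igfbp2 was the member called between the diets, higher in M+Fc-GLP-1 than in C+Fc-GLP-1 livers. Here 1 of 6 members was called, beside 10.4% of all genes. Igfbp2 levels were 7.77, 7.72, 7.37 and 7.09 in the C+Fc-GLP-1 livers and 8.66, 8.57, 8.29 and 8.85 in the M+Fc-GLP-1 livers. All M+Fc-GLP-1 values lay above all C+Fc-GLP-1 values, a 2.15-fold rise (log2 difference 1.11, SE 0.34, limma adjusted p = 0.0342) within 1 slide. The adjusted p rose to between 0.0519 and 0.0978 without C+Fc-GLP-1 replicate 3 or 4 or M+Fc-GLP-1 replicate 1, 2 or 4, at differences of 0.97 to 1.12, and to 0.0902 with arrays centred on their median (difference 0.85). Igfbp1 levels were 6.66, 8.44, 8.33 and 7.31 in the C+Fc-GLP-1 livers and 7.82, 7.88, 9.59 and 8.25 in the M+Fc-GLP-1 livers. The groups overlapped, and the difference was 0.70 (95% interval -0.36 to 1.77). Igfbp5 differed here by -0.09 (-1.11 to 0.93).

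Of the IGF axis list, 2 of 15 genes were called under Fc-GLP-1 before PH: Stc2, an inhibitor of PAPP-A, rose by 1.72 and Stat5b fell by 0.96. Stc2 was dim, from -5.94 to -5.34 in C+Fc-GLP-1 livers. The lowest signals well above background on those arrays were -4.89 to -4.42, so the size of this rise is uncertain. Igf1 differed by -0.46 (adjusted p = 0.229), Igfals by -0.39 (adjusted p = 0.533) and Igf1r by 0.60 (adjusted p = 0.215).

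In MCD-fed livers before PH, those given Fc-GLP-1 had more Igfbp2 than those given saline, and slide and treatment cannot be told apart here. Against the MCD livers, all 4 M+Fc-GLP-1 livers had higher Igfbp2, a 2.31-fold rise (log2 difference 1.21, SE 0.34, limma adjusted p = 0.0305), and 1 of 6 members was called, beside 7.21% of all genes. The size depended on the processing. The difference was 0.62 with quantile normalization (adjusted p = 0.182) and 0.64 in the deposited log2 values (adjusted p = 0.0788). The call was also lost, at adjusted p of 0.0582 to 0.0771, without M+Fc-GLP-1 replicate 1 or 4 or MCD replicate 1, 2 or 4. Igfbp1 differed by 0.05 (95% interval -1.01 to 1.12) and Igfbp6 by -1.72 (-3.29 to -0.15, adjusted p = 0.166). The Igfbp6 values did not overlap between these groups. Igf1 rose by 0.85 in the same comparison (limma adjusted p = 0.0281), and the macrophage markers Clec4f and Cd5l fell by 1.79 and 1.84.

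In chow-fed livers before PH, Fc-GLP-1 went with no called member (0 of 6, with 2.08% of all genes called by limma). At an unadjusted p under 0.05, for which the share of all genes is not given, there were 2 members. These were Igfbp6, with levels of 0.56, -0.13, -0.65 and 0.02 in C and -4.44, -2.17, 0.21 and -2.49 in C+Fc-GLP-1 livers, and Igfbp5, with a difference of -1.28 (adjusted p = 0.161). For Igfbp6 the difference was -2.17 (95% interval -3.74 to -0.60, adjusted p = 0.121), and C+Fc-GLP-1 replicate 3 lay within the range of the C livers. Without that array the difference was -2.98 and was called (adjusted p = 0.0445). Igfbp2 differed by -0.59 (-1.29 to 0.10). The values of Igfbp2 and those of Igfbp5 did not overlap between these groups, although neither member was called.

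Whether the diet difference in a member before PH was the same with and without Fc-GLP-1 was tested as an interaction. For Igfbp2 the diet difference was -0.69 without Fc-GLP-1, which did not pass, and 1.11 with it, while in the deposited log2 values and with quantile normalization both were above 0. This interaction of diet with treatment was 1.80 for Igfbp2 (SE 0.48, 95% interval 0.82 to 2.78, limma adjusted p = 0.0276), and 1 of 6 members was called, beside 6.13% of all genes. The value was 0.83 with quantile normalization (adjusted p = 0.324) and 0.84 in the deposited log2 values (adjusted p = 0.171). It was 1.18 with arrays centred on their median (adjusted p = 0.0907), so that the call rests on the processing. Without C+Fc-GLP-1 replicate 4 the interaction was 1.67 (adjusted p = 0.0549). For Igfbp5 the interaction was 1.76 (0.32 to 3.20, adjusted p = 0.128), and for Igfbp1 it was -0.92 (-2.43 to 0.58, adjusted p = 0.465), so their diet differences were not shown to differ with treatment.

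**Figure D2:**
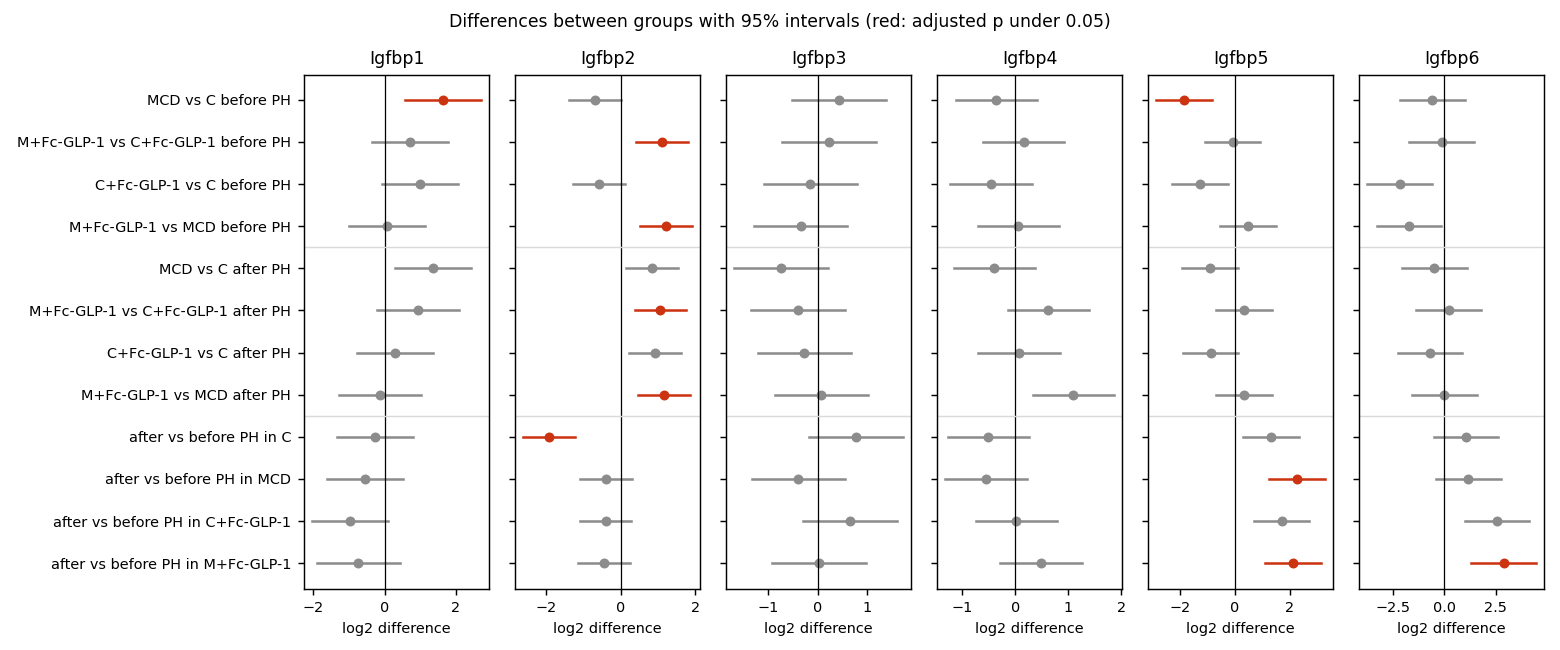
Log2 difference of each tested member (x axis, first group minus second) in the 12 comparisons between groups (y axis), with 95% intervals from limma; red marks an adjusted p under 0.05. Igfbp2 is marked in both diet comparisons under Fc-GLP-1 and both comparisons of M+Fc-GLP-1 with MCD, and Igfbp3 and Igfbp4 are marked in none.

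At 2 weeks after PH, no member passed between MCD and C livers (0 of 6 by limma, with 12.2% of all genes called). At an unadjusted p under 0.05, for which the share of all genes is not given, there were 2 members. Igfbp1 levels were 6.24, 6.81, 5.88 and 6.80 in C and 7.93, 8.45, 7.52 and 7.28 in MCD livers. All MCD values lay above all C values, as before PH, with a difference of 1.36 (95% interval 0.29 to 2.42, adjusted p = 0.0883). Igfbp2 differed by 0.83 (0.14 to 1.53, adjusted p = 0.112). Single C livers weighed on several members: without C replicate 3, Igfbp2 (1.15, adjusted p = 0.0332) and Igfbp5 (-1.52, adjusted p = 0.0338) were called, and without C replicate 1, Igfbp3 was (-1.34, adjusted p = 0.0271). Igf1 fell by 0.99, Ghr by 1.39 and Htra1, a protease that cuts IGFBPs, by 1.43, the 3 of 15 axis genes called. Igfals differed by -0.96 (adjusted p = 0.0753) and Igf1r by 0.17.

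Under Fc-GLP-1, Igfbp2 was again higher in MCD-fed than in chow-fed livers 2 weeks after PH, where the labels of the chow-fed livers name a dual agonist. The C+Fc-GLP-1 levels were 6.08, 7.07, 7.85 and 7.30 and the M+Fc-GLP-1 levels were 8.38, 8.25, 8.45 and 7.46. The groups overlapped, since M+Fc-GLP-1 replicate 4 lay below C+Fc-GLP-1 replicate 3. The rise was 2.09-fold (log2 difference 1.06, SE 0.34, limma adjusted p = 0.0365), within 1 slide, and 1 of 6 members was called, beside 12.9% of all genes. The difference was 0.73 without C+Fc-GLP-1 replicate 1 (adjusted p = 0.171), and the call was also lost without C+Fc-GLP-1 replicate 2 or M+Fc-GLP-1 replicate 1, 2 or 3 (adjusted p of 0.0693 to 0.101). In the deposited log2 values it was 0.82 (adjusted p = 0.191). Igf1 fell by 1.01 and Ghr by 1.76 in this comparison, with Htra1 and Stat5b the other called axis genes of 15, all 4 lower in M+Fc-GLP-1. Igfals differed by -0.94 (adjusted p = 0.0831) and Igf1r by 0.34. Of the 10 amino acid shortage genes 5 were called, all higher in M+Fc-GLP-1, with Psat1 higher by 4.61. Igfbp1 differed by 0.93 (95% interval -0.22 to 2.08).

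After PH, M+Fc-GLP-1 livers again had more Igfbp2 than MCD livers, which lay on another slide. These comparisons share the M+Fc-GLP-1 arrays with those between the diets. The MCD levels were 6.83, 6.89, 7.13 and 7.11, and all 4 M+Fc-GLP-1 values lay above them. The rise was 2.22-fold (log2 difference 1.15, SE 0.34, limma adjusted p = 0.0403), and 1 of 6 members was called, beside 6.45% of all genes. It was 0.54 with quantile normalization (adjusted p = 0.337) and 0.53 in the deposited log2 values (adjusted p = 0.413), and it was called only when M+Fc-GLP-1 replicate 4, the lowest of its group, was the array left out (otherwise adjusted p of 0.0541 to 0.103). Igfbp4 levels were 3.35, 3.20, 4.61 and 2.93 in MCD and 5.14, 4.24, 4.64 and 4.43 in M+Fc-GLP-1 livers. MCD replicate 3 alone overlapped the other group. The difference of 1.09 (95% interval 0.33 to 1.86, adjusted p = 0.0749) did not pass with all arrays, and without that array it was 1.45 (adjusted p = 0.0216). Of the axis genes, Stc2 rose by 1.97, from levels of -6.26 to -3.89 in MCD livers. The lowest signals well above background on those arrays were -4.98 to -3.88, so the size of this rise is uncertain. In chow-fed livers after PH, 0 of 6 members were called between C+Fc-GLP-1 and C, beside 2.05% of all genes by limma. At an unadjusted p under 0.05, for which the share of all genes is not given, there was 1 member, Igfbp2. Its difference was 0.92 (95% interval 0.23 to 1.62, adjusted p = 0.169).

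Igfbp2 has 2 probes in the same transcript, starting at bases 958 and 1094 of NM_008342, and the levels above come from the brighter one. Over the 32 arrays the 2 probes correlated with r = 0.83. The other probe gave differences of the same sign in all 5 called comparisons between groups and in the interaction. It was called for M+Fc-GLP-1 against C+Fc-GLP-1 after PH (1.47, adjusted p = 0.0327) and for C after against before PH (-1.69, adjusted p = 0.0150). It was not called for M+Fc-GLP-1 against C+Fc-GLP-1 before PH (0.81, adjusted p = 0.28), for M+Fc-GLP-1 against MCD before PH (0.93, adjusted p = 0.219) or after PH (1.20, adjusted p = 0.116), or for the interaction (1.72, adjusted p = 0.11).

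**Figure D3:**
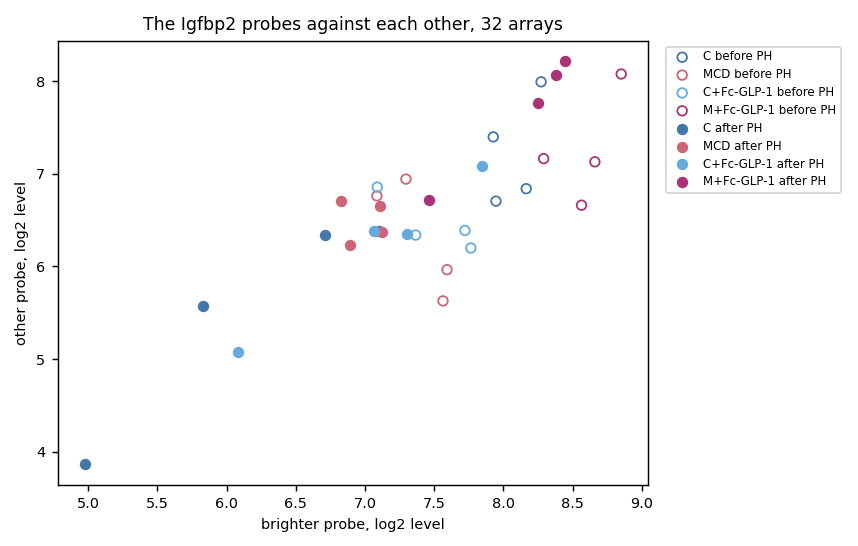
Level of Igfbp2 from its other probe (y axis, log2) against the level from its brighter probe (x axis, log2), 1 point per array, open before PH and filled after PH, coloured by group. The 2 probes rise together over the 32 arrays (r = 0.83), and C replicate 1 after PH is lowest on both.

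Between the samples taken before and after PH, the largest change in the C livers was in Igfbp2. Its levels were 7.95, 8.27, 7.93 and 8.17 before and 4.97, 5.83, 7.10 and 6.71 after PH. All values after PH lay below all values before PH, a 3.79-fold fall (log2 difference -1.92, SE 0.34, limma adjusted p = 0.000592), and it was called with every array left out in turn. With quantile normalization the difference was -0.84 (adjusted p = 0.0707). In this comparison 1 of 6 members was called, beside 13.8% of all genes, and all 5 macrophage markers were higher after PH (median 1.79) while Igf1 differed by 0.12. Of 5 hepatocyte markers 1 was called, lower after PH, with a median difference of -0.61 over the list. Slide and scanner changed together with time, and their part was not tested. The same difference was -0.46 in M+Fc-GLP-1, -0.41 in C+Fc-GLP-1 and -0.40 in MCD livers, each with an interval that included 0. The other Igfbp2 probe gave the opposite sign in M+Fc-GLP-1 (0.43) and MCD livers (0.17) and the same sign in C+Fc-GLP-1 livers (-0.22).

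Igfbp5 means were higher after PH in all 4 groups, and the difference was called in 2 of them. In MCD livers it was -2.73, -2.42, -3.56 and -3.75 before and -0.86, -0.66, -0.96 and -0.94 after PH. The groups did not overlap, a 4.80-fold rise (log2 difference 2.26, SE 0.50, limma adjusted p = 0.00426) that was called with every array left out in turn, and 1 of 6 members was called, beside 9.33% of all genes. With quantile normalization the difference was 1.29 (adjusted p = 0.0373). In M+Fc-GLP-1 livers it was -1.81, -3.65, -2.84 and -2.23 before (well above background on 3 of 4 arrays) and -0.08, -0.50, -0.36 and -1.18 after PH. The groups again did not overlap, a 4.30-fold rise (2.10, SE 0.50, limma adjusted p = 0.0245), although the adjusted p rose to between 0.061 and 0.0748 without replicate 1, 2 or 3 after PH or replicate 2 or 3 before PH. It was 1.29 with quantile normalization (adjusted p = 0.0575), and the adjusted p was 0.0608 with only these groups in the fit. In C+Fc-GLP-1 livers the difference was 1.70 (adjusted p = 0.0956), and the groups did not overlap there either. No member was called there (0 of 6 by limma, beside 0.831% of all genes). At an unadjusted p under 0.05, for which the share of all genes is not given, there were 2 members. In C livers the Igfbp5 difference was 1.31 (adjusted p = 0.0738), where the values after PH were -0.59, 1.18, -1.81 and 1.41. Without C replicate 3 after PH it was 1.93 and was called (adjusted p = 0.00512).

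Igfbp6 means were also higher after PH in all 4 groups, with a wider spread, and 1 group was called. In M+Fc-GLP-1 livers its levels were -2.12, -2.54, -2.40 and -2.38 before (well above background on 3 of 4 arrays) and 0.96, -0.04, 0.75 and 0.44 after PH. The groups did not overlap, a 7.39-fold rise (log2 difference 2.89, SE 0.77, limma adjusted p = 0.0478), so that 2 of 6 members were called in this group, beside 1.71% of all genes. Leaving out any 1 of these 8 arrays put the adjusted p between 0.075 and 0.107, at differences of 2.74 to 3.07, and with quantile normalization it was 2.07 (adjusted p = 0.0797). In C+Fc-GLP-1 livers the levels after PH were 2.21, -0.10, -0.69 and -0.11, and the difference of 2.55 (adjusted p = 0.101) was called only without replicate 3 before PH (3.36, adjusted p = 0.0303). It was 1.17 in MCD livers (95% interval -0.40 to 2.73) and 1.06 in C livers (-0.50 to 2.63), where the values after PH ran from -1.58 to 2.99.

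Igfbp5 and Igfbp6 varied together over the 32 arrays (r = 0.81), and the mesothelial marker Msln, mesothelin, was the tested gene most like either of them (r = 0.83 and r = 0.87). The 3 genes most like Igfbp5 were Msln, Anxa8 and Igfbp6 itself, and those most like Igfbp6 were Msln, Rspo1 and Nkain4 (r = 0.87, 0.87 and 0.85). Msln rose after PH in MCD livers by 3.26 (SE 0.86, limma adjusted p = 0.015) and in M+Fc-GLP-1 livers by 5.35 (adjusted p = 0.000744), the same 2 groups in which Igfbp5 was called. Before PH, Msln lay from -5.72 to -1.45 in MCD and from -5.18 to -3.50 in M+Fc-GLP-1 livers. The lowest signals well above background on those arrays were -5.17 to -4.81 and -4.74 to -3.11, so the sizes of these rises are uncertain. Of the 3 tested markers of 4 in the mesothelial list (Upk3b was too dim), Msln alone was called after against before PH in these groups, and Wt1 differed by -0.63 and -0.98. The mean log2 level over the 3 markers ran from -3.49 to -2.18 before and from -1.88 to -1.03 after PH in MCD livers, and from -4.25 to -3.33 before and from -2.42 to -1.31 after PH in M+Fc-GLP-1 livers. Of the stellate cell markers, 2 of 7 were called in MCD livers after PH, both lower, and 0 of 7 in M+Fc-GLP-1 livers. The part of mesothelial tissue on the liver pieces in the Igfbp5 and Igfbp6 differences was not tested.

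**Figure D4:**
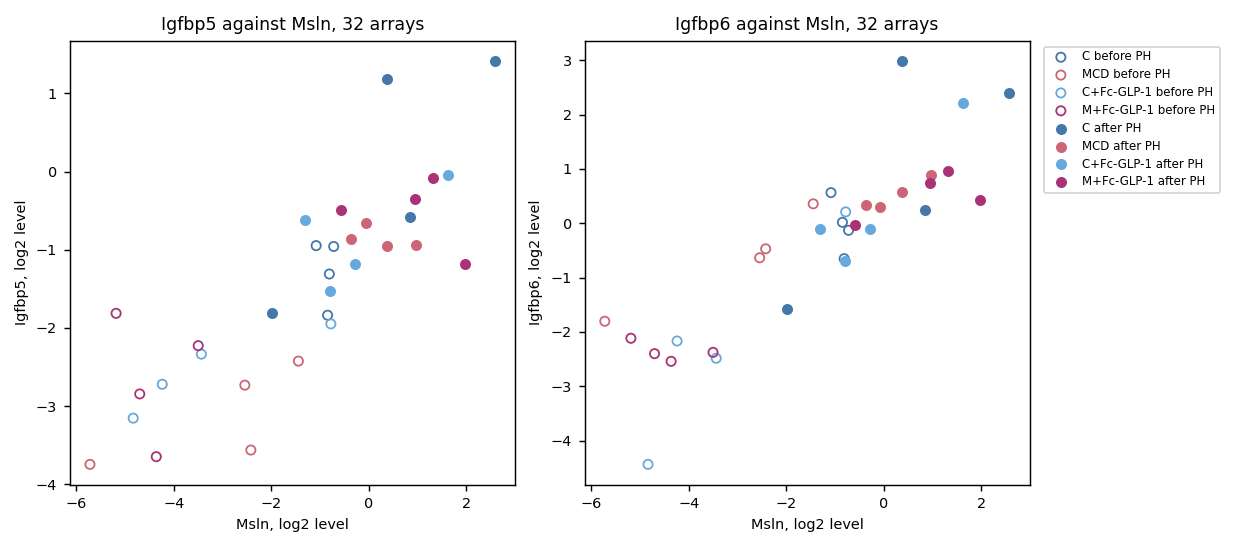
Level of Igfbp5 (left, y axis, log2) and Igfbp6 (right, y axis, log2) against the level of Msln (x axis, log2), 1 point per array, open before PH and filled after PH, coloured by group. Most arrays after PH lie at the upper right in both plots (r = 0.83 and r = 0.87 over 32 arrays).

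Some arrays ranked alike for Igfbp5 and Igfbp6, the members that moved with Msln. Among the C livers after PH, replicates 2 and 4 had Igfbp5 at 1.18 and 1.41 and Igfbp6 at 2.99 and 2.40, while replicate 3 had -1.81 and -1.58. Among the C+Fc-GLP-1 livers before PH, replicate 3 was highest for both, at -1.95 (next value -2.34) and 0.21 (next value -2.17). Igfbp5 and its chromosomal neighbour Igfbp2 had r = -0.40 over the 32 arrays, and Igfbp1 and its neighbour Igfbp3 had r = -0.17 over 31 arrays. These correlations hold the group differences and the array effects alike and are given as descriptions.

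Igfbp3 and Igfbp4 were called in none of the 14 comparisons. Igfbp3 had its widest spread in C livers after PH (-2.56, -0.22, -0.52 and 0.19), where replicate 1 lay far below the other 3, and its difference from before PH was 0.78 (95% interval -0.17 to 1.72) with all arrays and 1.37 without that array (adjusted p = 0.0393). The genes most like it were Aasdhppt, Fpgt and Angptl2 (r = 0.55, 0.54 and 0.54). Igfbp4 means stayed between 3.52 and 4.61, and the genes most like it were Ascc1, Cps1 and Srrd (r = 0.69, 0.66 and 0.64). The genes most like Igfbp1 were Mrps33, Mrpl20 and Eif3g (r = 0.81, 0.74 and 0.73, 31 arrays), and those most like Igfbp2 were Syde2, Eci3 and Kcnn2 (r = 0.83 for each). The interaction of diet and time under Fc-GLP-1 called 0 of 6 members by limma, with 0 at an unadjusted p under 0.05, beside 0.0939% of all genes. For Igfbp2 it was -0.05 (95% interval -1.03 to 0.94), so a change of the diet difference by up to about 1 log2 unit in either direction lay within the interval.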

How the data were processed

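Liver RNA was hybridised to 1-colour 60-mer arrays of 62976 spots (59305 non-control). The authors deposited scanner intensity values, per the file headers from Feature Extraction 10.7.3.1 (mm9 annotation), background-subtracted and detrended within the array. They also deposited log2 values normalized with limma, set separately for the arrays before and after PH, as the 75th percentiles of 8.57 to 8.58 and 9.18 to 9.24 show, which were used as an alternative within each time.

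Each processed signal was taken to log2, and log2 of its array's 75th percentile over non-control spots (209.4 to 778.4) was subtracted. Flagged spots were set to missing, and a probe was dropped only if over 1 array of a group was missing, which keeps Igfbp1. A probe had to be well above background on every array of some group, which 29300 probes were, and each of the 21289 genes was represented by its brightest such probe. RefSeq symbols were used for 27656 probes. Group means of all 32 arrays were fitted with limma 3.58.1 (R 4.3.3) for 12 comparisons and 2 interactions, after a test on simulated data, with Benjamini-Hochberg adjustment and a threshold of 0.05. The intervals are 95% intervals. The labels call the samples biological replicates without naming the mice, so p-values measure the spread between these samples, and the number of arrays limits the precision. Named genes were all members, the 3 tested genes most correlated with each member, Igf1, Igfals, Igf2 and Igf1r, and called genes of the lists, up to 6 by size. The members, lists and alternatives were chosen with earlier results of these data known, and keeping flagged spots and pairing samples before and after PH by number were added after the values were seen. Lists are described by counts and medians only, and 1 list that was examined is not reported here.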

Additional observations from a re-analysis of the deposited data

Results flagged for a closer look

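Of the 47 groups of 4 arrays examined for the 6 tested members, 1 had an array standing apart from the other 3, where chance gives about 1 in 20. It was the lowest Igfbp4 value among the C livers after PH, replicate 1 (3.06 against 4.13 to 4.27), whose gap to the next value was 0.881 of the range of the group. The diet difference in Igfbp2 before PH differed between livers with and without Fc-GLP-1, by an interaction of 1.80 on the log2 scale (limma adjusted p = 0.0276). It was 0.83 with quantile normalization (adjusted p = 0.324) and 0.84 in the deposited log2 values (adjusted p = 0.171), and its other probe gave 1.72 (adjusted p = 0.110).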

How the results depend on the processing

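The settings changed 1 at a time gave the following numbers of members past the threshold (of 6). Quantile normalization here includes normexp background correction with an offset of 50, so background correction and scaling changed together in that setting. Between M+Fc-GLP-1 and C+Fc-GLP-1 livers before PH, 1 became 0 with median centring, with the mean over probes and with no filter on dim probes. Between M+Fc-GLP-1 and MCD livers before PH, 1 became 0 with the authors' values, median centring, the mean over probes and quantile normalization, and 2 with only the groups compared in the fit, which also turned 0 into 1 between MCD and C after PH and 2 into 3, with Igfbp2, between MCD and C before PH. After PH, 1 became 0 between M+Fc-GLP-1 and C+Fc-GLP-1 with the authors' values, no filter, quantile normalization and only the groups compared, and between M+Fc-GLP-1 and MCD with the authors' values, median centring, the mean over probes, no filter and quantile normalization. After against before PH in C livers, 1 became 2 with the percentile taken over probes well above background everywhere, and 0 with quantile normalization. In M+Fc-GLP-1 livers, 2 became 0 with quantile normalization and 1 with only the groups compared. The interaction of diet with Fc-GLP-1 went from 1 to 0 with the authors' values, median centring and quantile normalization. Igfbp2 between MCD and C before PH turned from -0.69 to 0.3075 (authors' values) and 0.3139 (quantile normalization). The cause was not tested. Igfbp1 and Igfbp5 between MCD and C livers before PH and Igfbp5 after against before PH in MCD livers were called under all of these settings, at 1.63 to 2.29, -1.85 to -1.08 and 1.29 to 2.32, and keeping flagged spots changed no count.

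With 1 array left out, the count ran from 1 to 2 for MCD against C before PH, from 0 to 1 for M+Fc-GLP-1 against C+Fc-GLP-1 at both times, against MCD at both times, for C+Fc-GLP-1 against C before PH (0 to 0 after PH) and for the interaction of diet with Fc-GLP-1. It ran from 0 to 2 for MCD against C after PH, from 1 to 2 for after against before PH in C, 1 to 1 in MCD, 0 to 1 in C+Fc-GLP-1 and 0 to 1 in M+Fc-GLP-1 livers, and 0 to 0 for the interaction of diet and time. The deviations of same-numbered samples from their group means had a mean correlation of 0.0173 over the 112 pairs of arrays of different groups. Among the 16 pairs before and after PH of 1 diet and treatment it ran from -0.0478 to 0.0878 (mean 0.0126, against -0.00404 for other numbers), 0 of them over 0.1, so the samples were treated as sharing only a number. With a replicate block, the count in M+Fc-GLP-1 after against before PH was 1, since Igfbp6 was lost (adjusted p = 0.0614), and no other count changed. With a replicate block within each group before and after PH, that count was 0 (Igfbp5 adjusted p = 0.0549, Igfbp6 adjusted p = 0.101), and no other count of after against before PH changed. The slide could not be fitted as a random block, because each group lies on 1 slide. Median centring moved the median of all genes by -0.62 to 0.37 between groups or in an interaction.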
